A study of Mus musculus with 18 samples.

Results

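The CDK inhibitors, p53 and the Rb axis were followed as a set of 10 genes chosen by name: the inhibitors *Cdkn1a*, *Cdkn1b*, *Cdkn2a*, *Cdkn2b*, *Cdkn2c* and *Cdkn2d*, the p53 gene *Trp53* with its negative regulator *Mdm2*, and the pocket protein genes *Rb1* and *Rbl1*. All 10 were found among the 21959 genes of the MEF table and among the 51826 genes of the liver table. The mice carried a CRISPR/Cas9 deletion of repeat B, a cytosine-rich repeat of the long non-coding RNA *Xist*, which coats the inactive X chromosome of females, and ICR mice were used. Polyadenylated RNA was sequenced from liver and from cells that the paper names primary mouse embryonic fibroblasts (MEFs, cells grown from embryos). For gene expression the paper elsewhere names tail and ear fibroblasts, so the source of these cells is not settled. The paper does not give the passage of the MEFs. Of each tissue, 3 libraries were labelled as the deletion, homozygous in the study's naming (RepB-/-), and 3 as wild type (WT). The labels gave the genotypes as the letters B and W, listed the MEFs under the tissue "Tail", and gave neither sex nor age, nor whether libraries came from separate animals or cultures, so p-values measure only the spread between libraries, which may be technical. The brain libraries were not analysed here.

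These genes decide whether a cell passes from G1 into S phase. Cyclin-dependent kinases phosphorylate RB1 and its relative p107, the product of *Rbl1*, which otherwise hold E2F transcription factors in check, and the released E2F factors switch on genes of DNA replication. The inhibitors block those kinases: the INK4 proteins of the *Cdkn2* genes bind CDK4 and CDK6, and p21 and p27, of *Cdkn1a* and *Cdkn1b*, bind cyclin-CDK complexes more broadly. The tumour suppressor p53 activates *Cdkn1a*, and it also activates *Mdm2*, whose product marks p53 for degradation. Cultured MEFs accumulate INK4 and ARF products as they age, while these stay low in most young tissues.

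Depth was 20005541 to 20587556 counts in RepB-/- MEF libraries and 11540344 to 16347806 in WT MEF libraries, lowest in WT replicate 1. Depth and genotype thus went together in MEFs, and the part of depth in the genotype differences was not tested. Liver libraries had 37682201 to 51542709 counts. Fibroblast markers were above 1 CPM (counts of a gene per 1000000 counts of the library) in 8 of 8 cases in MEFs and hepatocyte markers in 8 of 8 cases in liver, and 0 of 8 hepatocyte markers reached that level in MEFs. *Xist* had between 14494 and 26345 counts in 5 liver libraries and 4 counts in the library labelled RepB-/- replicate 2, which also held 4342 counts of the 4 Y-linked genes against at most 1 elsewhere in liver. That library reads as male, and a male has a single X chromosome, so it went against a homozygous RepB-/- genotype. It is kept as labelled below, and the liver values are also given without it. Gene-level counts do not show the deletion itself, and *Xist* in MEFs was not analysed here. The replicate 1 livers of both genotypes stood apart from the other 4, with fetal liver markers (*Afp*, *H19*, *Igf2*, *Dlk1* and *Gpc3*) summing to 5970 CPM in RepB-/- and 4753 CPM in WT against 4.50 to 20.2 CPM.

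In MEFs, 5 of the 10 genes passed the test, read against a background of 39.1% of 13306 genes called in this comparison. *Cdkn1a* and *Mdm2* were lower in RepB-/- cells, and *Rbl1*, *Cdkn2b* and *Cdkn2c* were higher. *Trp53*, *Cdkn1b*, *Cdkn2a*, *Cdkn2d* and *Rb1* were not called. Calls in the higher direction made up 19.4% of all genes tested and calls in the lower direction 19.7%, so a share of 5 in 10 was not far from the background. The same 5 genes were those whose libraries did not overlap between genotypes, as was the case for 52.2% of all genes tested. Levels are CPM on library sizes scaled by TMM, differences are log2 fold changes of RepB-/- over WT from edgeR's quasi-likelihood fit with standard errors (SE), and p-values were adjusted over all genes tested.

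**Figure D1:**
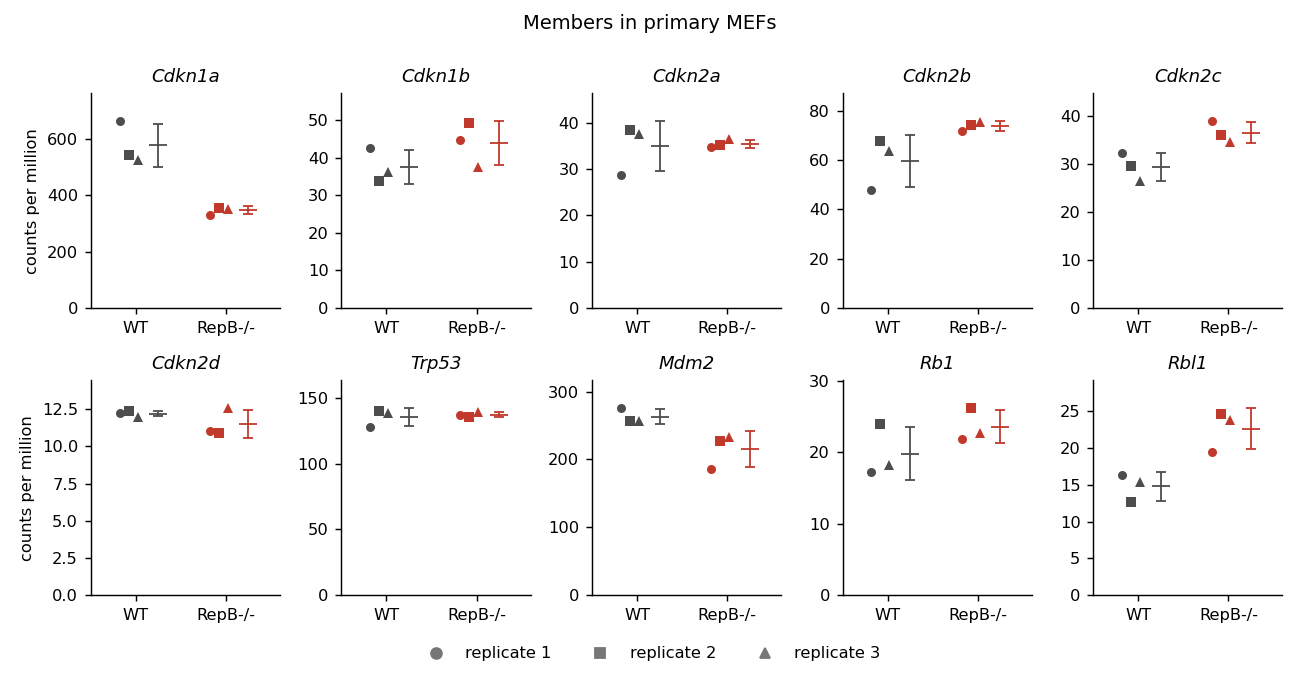
Level of each of the 10 genes in primary MEFs in CPM (vertical axes start at 0) for 3 WT and 3 RepB-/- libraries. Symbols give the replicate, the horizontal mark the mean and the bar the SD; *Cdkn1a* and *Mdm2* lie lower in every RepB-/- library than in any WT library, and *Cdkn2b*, *Cdkn2c* and *Rbl1* lie higher.

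*Cdkn1a*, which encodes p21, is at chromosome 17, 29090979 to 29100722 on the plus strand of GRCm38. Its level was 331, 357 and 352 CPM in RepB-/- replicates 1, 2 and 3 and 663, 542 and 527 CPM in WT. All 3 RepB-/- libraries were below all 3 WT libraries, and WT replicate 1 was the highest of the 6. The mean was 347 CPM ± 13.9 (SD, n = 3) against 577 CPM ± 74.7 (SD, n = 3), a 1.66-fold lower level in RepB-/- MEFs (log2 fold change -0.74, SE 0.09, adjusted p = 4.56e-05). The call held in all 10 alternative fits, where the log2 fold change lay between -0.79 and -0.62. In a bulk library, fewer cells with the transcript and less transcript per cell cannot be told apart.

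The sequences around the annotated starts of *Cdkn1a* and *Mdm2* are shown because both are p53 targets and both were lower in RepB-/- MEFs. Each runs from 250 bases before to 50 bases after a RefSeq start (GRCm38.p6), at chr17:29090729-29091028 on the plus strand and chr10:117710709-117711008 on the minus strand, and capitals mark matches to the p53 decamer, the unit that is repeated in a p53 response element.
Cdkn1a: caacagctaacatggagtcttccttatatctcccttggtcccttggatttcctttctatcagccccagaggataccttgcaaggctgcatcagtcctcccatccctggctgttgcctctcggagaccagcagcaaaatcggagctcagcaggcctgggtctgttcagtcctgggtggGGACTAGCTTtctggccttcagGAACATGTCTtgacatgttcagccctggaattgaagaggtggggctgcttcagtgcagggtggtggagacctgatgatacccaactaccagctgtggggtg
Mdm2: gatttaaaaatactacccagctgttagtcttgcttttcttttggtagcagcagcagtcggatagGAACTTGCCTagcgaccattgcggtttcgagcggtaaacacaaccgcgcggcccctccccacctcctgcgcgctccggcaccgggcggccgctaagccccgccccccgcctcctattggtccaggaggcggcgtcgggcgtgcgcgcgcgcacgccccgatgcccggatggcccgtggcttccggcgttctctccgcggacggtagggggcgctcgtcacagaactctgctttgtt
The upstream *Cdkn1a* start held matches at positions -73 and -51 from the start, and the *Mdm2* start held a match at -186. Response elements outside the windows would not be seen, and whether p53 binds these matches was not tested. A match was found, on either strand, in 8.36% of 32851 promoters of this length and for 9.55% of 27025 genes, in 4 of the 9 members that have an entry, and in 9 of 28 genes with an entry on the list of p53 targets. *Trp53* itself (position -75) and *Cdkn2d* (-102) held the other matches among the members, and neither gene was called in MEFs. *Cdkn1a* has a further start downstream, at chr17:29093519-29093818, with no match in the window.

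*Trp53*, the p53 gene (chromosome 11, 69580359 to 69591873, plus strand), was at 137, 136 and 139 CPM in RepB-/- MEFs and at 128, 140 and 138 CPM in WT. The groups overlapped and the log2 fold change was 0.02 (SE 0.07, adjusted p = 0.851). *Mdm2*, which encodes the ubiquitin ligase that acts on p53 (chromosome 10, 117688875 to 117710758, minus strand), was at 186, 227 and 233 CPM in RepB-/- MEFs and at 275, 256 and 257 CPM in WT. It was lower in every RepB-/- library, and 1.22-fold lower in the fit (log2 fold change -0.29, SE 0.09, adjusted p = 0.0178). RepB-/- replicate 1 had the lowest *Mdm2*, and without that library the log2 fold change was -0.18 and the call was lost (adjusted p = 0.111). Within libraries, the *Mdm2* level was 1.36 to 1.68 times the *Trp53* level in RepB-/- MEFs and 1.83 to 2.15 times in WT, and the *Cdkn1a* level 2.42 to 2.63 times against 3.81 to 5.18 times. These ratios of CPM are not per length and are read only between libraries.

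*Cdkn1b*, which encodes p27 (chromosome 6, 134920401 to 134925513, plus strand), was at 44.9, 49.1 and 37.5 CPM in RepB-/- MEFs and at 42.5, 33.8 and 36.3 CPM in WT. The groups overlapped, with a log2 fold change of 0.23 (SE 0.11, adjusted p = 0.122). The gene passed the threshold in 3 of 10 alternative fits, with adjusted p = 0.0158 without WT replicate 1, 0.0346 without RepB-/- replicate 3 and 0.0269 with no filter on low counts. The balance of the pair did not overlap between genotypes, as *Cdkn1a* was 7.26 to 9.40 times *Cdkn1b* in RepB-/- libraries and 14.5 to 16.0 times in WT libraries, in CPM.

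The neighbours *Cdkn2a* (chromosome 4, 89274471 to 89294653, minus strand) and *Cdkn2b* (chromosome 4, 89306289 to 89311032, minus strand) form the INK4-ARF locus, a textbook target of Polycomb repression. *Cdkn2a* has separate starts for p19ARF, which stabilises p53, and for p16INK4A, a CDK4 and CDK6 inhibitor, and gene-level counts pool both products. The windows around both starts are shown because of this, at chr4:89294570-89294869 and chr4:89282143-89282442 on the minus strand (GRCm38.p6, RefSeq), with capitals for an E2F motif, searched on both strands as TTTCCCGC, TTTGGCGC, TTTCGCGC and TTTGCCGC.
Cdkn2a upstream start: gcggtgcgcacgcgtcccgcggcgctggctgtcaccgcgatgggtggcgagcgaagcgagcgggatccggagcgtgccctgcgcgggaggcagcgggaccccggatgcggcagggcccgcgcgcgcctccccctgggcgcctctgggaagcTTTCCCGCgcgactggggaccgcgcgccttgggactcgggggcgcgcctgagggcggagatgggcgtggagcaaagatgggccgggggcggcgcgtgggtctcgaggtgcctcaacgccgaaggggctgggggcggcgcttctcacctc
Cdkn2a downstream start: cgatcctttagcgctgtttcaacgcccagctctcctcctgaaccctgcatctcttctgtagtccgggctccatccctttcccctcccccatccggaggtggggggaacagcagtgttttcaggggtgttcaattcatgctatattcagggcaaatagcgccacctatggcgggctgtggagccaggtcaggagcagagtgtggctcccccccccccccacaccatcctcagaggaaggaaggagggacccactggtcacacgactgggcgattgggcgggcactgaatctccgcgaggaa
The upstream start, which is that of the ARF transcript, held TTTCCCGC at position -99, and the downstream start held no match.

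*Cdkn2a* was at 34.8, 35.2 and 36.4 CPM in RepB-/- MEFs and at 28.7, 38.5 and 37.5 CPM in WT, with the RepB-/- libraries inside the WT range. The log2 fold change was 0.02 (SE 0.11, adjusted p = 0.906), and it lay between -0.10 and 0.09 when each library was left out. *Cdkn2b*, which encodes p15INK4B, was at 71.8, 74.1 and 75.5 CPM in RepB-/- MEFs and at 47.7, 67.8 and 63.7 CPM in WT. All RepB-/- libraries lay above all WT libraries, and WT replicate 1 lay well below the other WT libraries. The fold was 1.23 (log2 fold change 0.30, SE 0.11, adjusted p = 0.0377), and the call was lost without WT replicate 1 (log2 fold change 0.17, adjusted p = 0.0653) and without RepB-/- replicate 1, 2 or 3 (adjusted p = 0.066, 0.0939 and 0.0929). Within libraries the *Cdkn2b* level was 2.07 to 2.10 times that of *Cdkn2a* in RepB-/- MEFs and 1.66 to 1.76 times in WT, in CPM.

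The other INK4 genes lie outside this locus. *Cdkn2c*, which encodes p18INK4C (chromosome 4, 109660876 to 109667189, minus strand), was at 38.9, 36.1 and 34.7 CPM in RepB-/- MEFs and at 32.2, 29.6 and 26.5 CPM in WT. The groups did not overlap, and the gene was 1.25-fold higher (log2 fold change 0.32, SE 0.10, adjusted p = 0.0177). Leaving out RepB-/- replicate 1 or WT replicate 3 ended the call (adjusted p = 0.0758 and 0.0812). *Cdkn2d*, which encodes p19INK4D (chromosome 9, 21288410 to 21291407, minus strand), was at 11.0, 10.9 and 12.6 CPM against 12.3, 12.4 and 12 CPM, with a log2 fold change of -0.09 (SE 0.12, adjusted p = 0.605). Whether the change of *Cdkn2c* differed from that of *Cdkn2d* was not tested.

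Of the pocket protein genes, *Rbl1* was called and *Rb1* was not. *Rbl1*, which encodes p107 (chromosome 2, 157145893 to 157204534, minus strand), was at 19.4, 24.6 and 23.9 CPM in RepB-/- MEFs and at 16.4, 12.6 and 15.4 CPM in WT. Every RepB-/- library was above every WT library, and the mean was 22.6 CPM ± 2.80 (SD, n = 3) against 14.8 CPM ± 1.94 (SD, n = 3). The gene rose 1.53-fold (log2 fold change 0.62, SE 0.13, adjusted p = 0.00196) and stayed called in all 10 alternative fits. *Rb1*, the retinoblastoma gene (chromosome 14, 73183673 to 73325822, minus strand), was at 21.9, 26.2 and 22.8 CPM against 17.3, 24.1 and 18.2 CPM, with overlapping groups and a log2 fold change of 0.25 (SE 0.13, adjusted p = 0.148). It passed the threshold without WT replicate 2 (adjusted p = 0.0175) and with no filter on low counts (adjusted p = 0.0481). The span of *Rb1* overlaps *Rcbtb2* and *Lpar6* on the opposite strand, both of which are also in the MEF table. The MEF libraries were stranded, but the strand setting of the counting is not given in the sources used here, so counts in the shared parts are uncertain.

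The *Rbl1* start is shown because *Rbl1* is itself an E2F target and rose together with the E2F target list below. The window lies at chr2:157204485-157204784 on the minus strand (GRCm38.p6, RefSeq), and capitals mark a match to the same E2F motif.
Rbl1: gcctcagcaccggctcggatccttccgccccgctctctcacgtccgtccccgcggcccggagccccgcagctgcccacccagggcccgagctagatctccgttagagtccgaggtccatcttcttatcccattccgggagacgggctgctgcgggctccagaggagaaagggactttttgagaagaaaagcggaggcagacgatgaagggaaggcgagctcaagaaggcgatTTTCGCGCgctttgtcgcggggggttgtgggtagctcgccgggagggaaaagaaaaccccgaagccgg
The match, TTTCGCGC, lay at position -18. The motif was found in 2.26% of 32851 promoters and for 2.6% of 27025 genes, in 13 of 25 genes with an entry on the E2F target list, in 0 of 28 on the p53 target list, and in 2 of the 9 members with an entry, *Rbl1* and *Cdkn2a*.

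**Figure D2:**
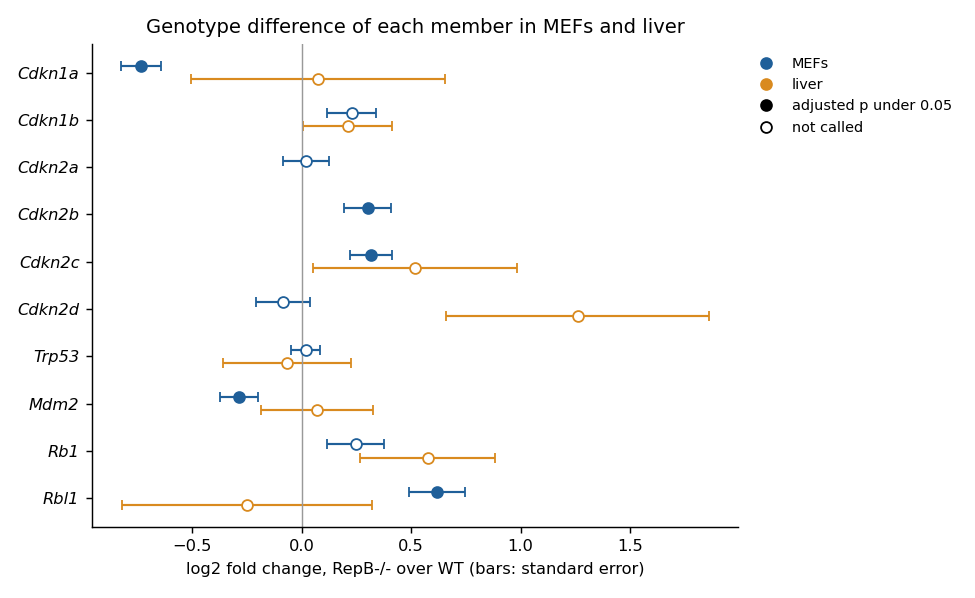
Log2 fold change of RepB-/- over WT (horizontal axis) for each of the 10 genes in MEFs and in liver, with bars of 1 SE and filled points for adjusted p under 0.05. The 5 filled points are all of MEFs; *Cdkn2a* and *Cdkn2b* have no liver point because they fell under the filter on low counts, and the liver bars are several times as wide as the MEF bars.

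Levels were put on one scale between genes by dividing CPM by the gene's length in kilobases. In WT MEFs the order was *Cdkn1a* at 162 CPM per kilobase, *Mdm2* at 51.7, *Cdkn2b* at 43.0, *Trp53* at 33.5, *Cdkn2a* at 29.8, *Cdkn2c* at 11.0, *Cdkn1b* at 8.25, *Cdkn2d* at 7.76, *Rb1* at 3.30 and *Rbl1* at 2.47 (means, n = 3). The neighbours *Cdkn2b* and *Trp53*, *Trp53* and *Cdkn2a*, and *Cdkn1b* and *Cdkn2d* overlapped in their library ranges, and the other neighbours did not. In RepB-/- MEFs *Cdkn1a* was still first at 97.6 CPM per kilobase, *Cdkn2b* at 53.1 stood above *Mdm2* at 42.4, and *Rb1* at 3.92 overlapped *Rbl1* at 3.78. The other places in the order did not move.

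The make-up of the 6 inhibitor transcripts differed with it. *Cdkn1a* was 58.6% to 68.0% of their summed level per kilobase in WT libraries and 45.3% to 46.7% in RepB-/- libraries. *Cdkn2b* was 12.5% to 18.7% in WT and 24.8% to 25.4% in RepB-/-. As parts of a whole, the other shares rise when that of *Cdkn1a* falls. The share of *Cdkn2a*, a gene that was not called, was 8.92% to 12.73% in WT and 13.98% to 14.55% in RepB-/-. The sum itself was 252 to 275 CPM per kilobase in WT and 206 to 215 in RepB-/-, so all RepB-/- libraries had a lower sum and a lower *Cdkn1a* share. These shares are descriptions and were not tested.

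**Figure D3:**
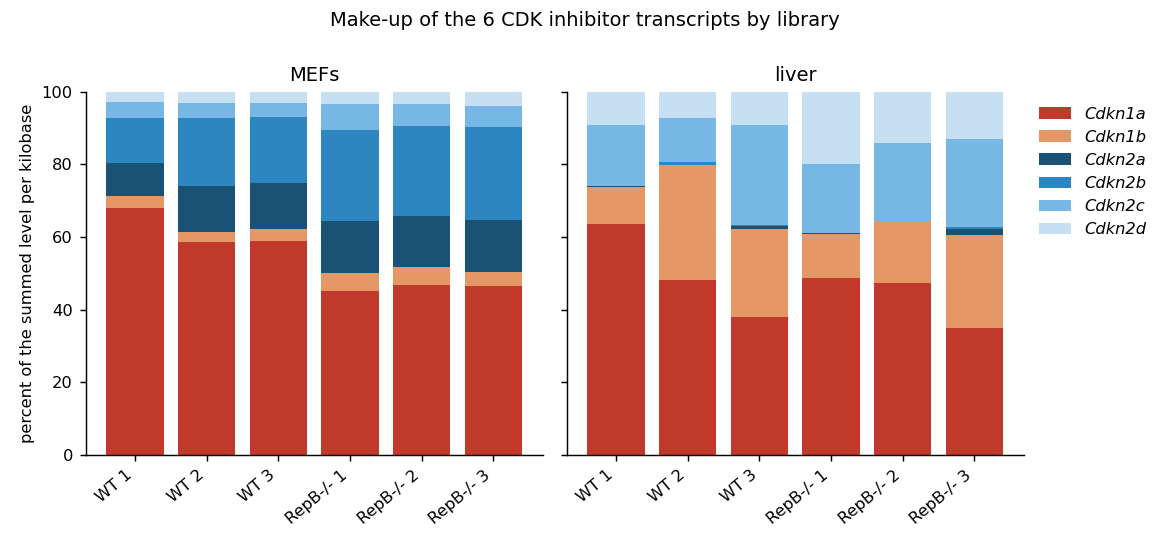
Percent of the summed level per kilobase of the 6 CDK inhibitor transcripts taken by each gene, 1 stacked bar per library (vertical axis 0 to 100). In MEFs *Cdkn1a* takes 45.3% to 46.7% in RepB-/- and 58.6% to 68.0% in WT, and in liver the *Cdkn2a* and *Cdkn2b* parts are nearly absent.

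Genes regulated by p53 were read from a list of 38, of which 37 were tested in MEFs. There were 10 lower and 2 higher in RepB-/- cells, and 25 were not called, so that 32.4% were called against 39.1% of all genes, and 27.0% were lower against 19.7%. The median log2 fold change was -0.03 against 0.0003 over all genes. Over the alternative fits 8 to 11 were lower and 2 to 3 higher, and the median lay between -0.08 and 0.02, so its sign was not stable. Without WT replicate 1 the counts were again 10 lower and 2 higher. *Pmaip1*, which encodes the pro-apoptotic BH3 protein NOXA, was at 8.41, 11.4 and 10.4 CPM in RepB-/- and at 61.7, 33.4 and 39.9 CPM in WT, a 4.43-fold lower level (log2 fold change -2.15, SE 0.19, adjusted p = 3.87e-06). *Plk3*, a stress-responsive kinase, was 2.88-fold lower (log2 fold change -1.53, SE 0.13), *Bbc3*, which encodes PUMA, another BH3 protein, was 1.65-fold lower (-0.73, SE 0.15), and the p53-induced phosphatase gene *Ptprv* was 1.59-fold lower (-0.67, SE 0.17). The 2 higher genes were *Sesn1*, a stress-induced regulator of growth signalling, at 1.58-fold and the death receptor gene *Fas* at 1.45-fold, both named after their values were seen. WT replicate 1 had the highest level of the 6 libraries for *Cdkn1a*, *Pmaip1*, *Plk3*, *Bbc3* and *Ptprv*.

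Most genes that act on p53 were not called. Of 16 tested, 3 were higher, 2 were lower and 11 were not called, a called share of 31.3% against 39.1% of all genes, with a median log2 fold change of -0.09. The DNA damage kinases *Atr* and *Atm* were higher, *Atr* at 14.3, 15.7 and 14.6 CPM against 6.74, 9.59 and 9.39 CPM (log2 fold change 0.78, SE 0.14, adjusted p = 0.000896) and *Atm* with a log2 fold change of 0.71 (SE 0.12, adjusted p = 0.000399). *Npm1*, whose nucleolar product binds ARF and MDM2, was higher (0.55, SE 0.09), and the p53 deacetylase gene *Sirt1* was lower (-0.65, SE 0.15). Among regulators of the INK4-ARF locus, 2 of 18 were higher (11.1%, against 19.4% of all genes) and 7 lower (38.9%, against 19.7%), with a median log2 fold change of -0.19. The counts were 1 to 3 higher and 5 to 7 lower in the alternative fits. The T-box repressors *Tbx2* and *Tbx3* were lower by log2 fold changes of -2.21 (SE 0.29) and -1.01 (SE 0.13), as were the H3K27 demethylase gene *Kdm6b* (-1.26, SE 0.17) and *Ets2* (-0.81, SE 0.14), which encodes an activator of p16. *Tbx2* was at only 1.39 to 1.93 CPM in RepB-/- MEFs and at 5.19 to 10.8 CPM in WT. The Polycomb genes *Bmi1* and *Ezh2*, named after their values were seen, had log2 fold changes of 0.16 and 0.23 and were not called.

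Downstream of Rb, E2F target genes were higher almost throughout. Of 30 tested, 24 were called higher (80.0%, against 19.4% of all genes), 0 lower and 6 not called, with a median log2 fold change of 0.61 against 0.0003 over all genes. The count was 21 to 25 in the alternative fits. Like the others, this list was chosen with earlier results of these data known. *Pola1*, the catalytic subunit of DNA polymerase alpha and an X-linked gene, rose 2.04-fold (log2 fold change 1.03, SE 0.18, adjusted p = 0.000743). *Uhrf1*, which guides maintenance of DNA methylation, rose 1.77-fold (0.82, SE 0.10), and the replicative helicase subunits *Mcm6* and *Mcm4* rose 1.69-fold (0.76, SE 0.08) and 1.68-fold (0.75, SE 0.10). *Rbl1*, at 1.53-fold, was within the range of this list. Of 7 proliferation markers 6 were higher and 0 lower, and *Mki67* was at 42.6, 44.3 and 42.4 CPM in RepB-/- MEFs against 14.9, 19.5 and 25.7 CPM in WT (log2 fold change 1.09, SE 0.14, adjusted p = 7.17e-05). These are RNA levels, in which more cells in the cycle, another spread of cells over its phases and more transcript per cell cannot be told apart. At the RNA level, the paper reported by gene set enrichment that cell cycle signature genes were raised in RepB-/- MEFs. It also measured slower proliferation and more G2/M cells in RepB-/- MEFs, and weaker Ki67 staining in RepB-/- tissues except lung.

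**Figure D4:**
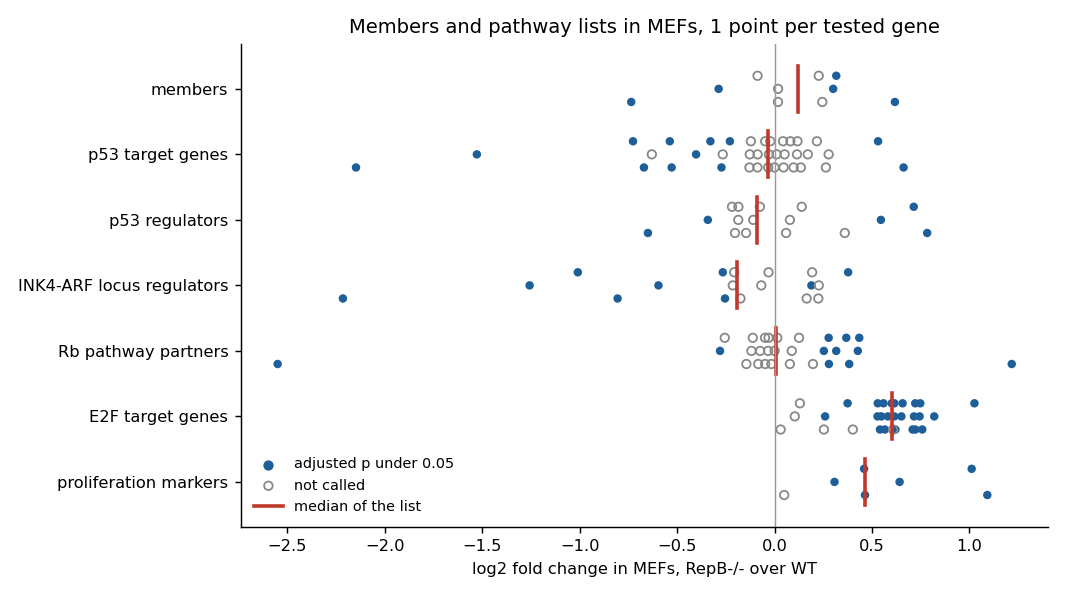
Log2 fold change in MEFs (horizontal axis) of every tested gene of the 10 members and of 6 lists, 1 point per gene, filled where adjusted p was under 0.05, with the median of each list as a vertical mark. The E2F target genes lie above 0 with a median of 0.61, and the p53 target genes are centred near 0 with 10 called lower.

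Partners in the Rb pathway were listed as cyclins, kinases, E2F proteins, subunits of repressor complexes and regulators of the kinases, among them the inhibitor *Cdkn1c* and the phosphatase *Cdc25a*. Of 28 there were 9 higher, 2 lower and 17 not called, with a median log2 fold change of 0.007. The called share of 39.3% was close to that of all genes (39.1%), with 32.1% higher against 19.4% and 7.14% lower against 19.7%. Without RepB-/- replicate 1 the higher count was 4 and the lower count 1. *Ccne2*, which encodes cyclin E2, a partner of CDK2 at the start of S phase, was at 15.4, 16.6 and 14.9 CPM in RepB-/- MEFs against 7.62, 6.12 and 6.53 CPM in WT (log2 fold change 1.22, SE 0.13, adjusted p = 2.21e-05). *Rbl2*, the gene of the third pocket protein p130, rose 1.35-fold (0.43, SE 0.13, adjusted p = 0.0156), *E2f8*, a repressive E2F, rose 1.34-fold (0.43, SE 0.15) and *E2f1* 1.21-fold (0.28, SE 0.09, adjusted p = 0.0251). *Cdkn1c*, which encodes p57, the imprinted relative of p21 and p27, fell (log2 fold change -2.55, SE 0.55, adjusted p = 0.00256) but was near the lower limit of detection, at 0.255, 0.413 and 0.0507 CPM in RepB-/- and 2, 1.05 and 1.31 CPM in WT. The other lower gene was the phosphatase gene *Cdc25a*, named after its values were seen.

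Genes tied to cellular senescence were mixed. Among secreted factors of senescent cells 8 of 20 tested were higher (40%, against 19.4% of all genes) and 5 lower (25.0%, against 19.7%). *Il6* was at 15.0, 16.5 and 14.5 CPM against 4.57, 4.45 and 4.10 CPM (log2 fold change 1.81, SE 0.14, adjusted p = 1.19e-06), and the chemokine genes *Ccl8* (1.45, SE 0.14) and *Ccl7* (1.37, SE 0.20) were also higher, whereas the growth factor gene *Areg* was lower (-2.25, SE 0.47) at 0.465 to 0.760 CPM in RepB-/- and 1.86 to 5.69 CPM in WT. *Hmgb2* (0.81, SE 0.09) and *Hmgb1* (0.36, SE 0.08), chromatin proteins that decline in senescence, were higher. *Glb1*, which encodes the lysosomal beta-galactosidase of the senescence stain, was lower (-0.30, SE 0.08, adjusted p = 0.00903), and *Lmnb1*, the lamin B1 gene, had a log2 fold change of 0.25 (SE 0.11, adjusted p = 0.1).

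Sums of leukocyte, muscle, endothelial, keratinocyte and fibroblast markers did not overlap between genotypes in MEFs, while single markers were mixed. Of all single genes tested in MEFs, 52.2% did not overlap between genotypes and 39.1% were called. Summed leukocyte markers were 117 to 151 CPM in RepB-/- and 50 to 64.6 CPM in WT, with 5 of 6 above 1 CPM in a library, *C1qa* below 1 CPM in all and *Ptprc* at 0.713 to 1.52 CPM. Skeletal muscle markers were 70.2 to 77.8 CPM against 142 to 212 CPM, endothelial markers 22.7 to 26.1 CPM against 36.7 to 44.6 CPM, keratinocyte markers 12.2 to 16.5 CPM against 24.1 to 25.8 CPM, and fibroblast markers 14136 to 17186 CPM against 9682 to 12734 CPM. Of the leukocyte markers 3 were called higher and 1 lower, of 5 skeletal muscle markers 2 were lower and 0 higher, and of 5 endothelial markers 1 was higher and 4 were lower. Of 6 keratinocyte markers 1 was higher and 1 lower, and of 8 fibroblast markers 4 were higher and 1 lower. The part of these differences in the values of the 10 genes was not tested.

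In liver, 0 of the 10 genes were called, of which 8 passed the filter on low counts, against a background of 0.0373% of 16080 genes, that is 6 genes. By DESeq2 the count of members was also 0, where 0.366% of all genes were called. At an unadjusted p under 0.05 edgeR gave 0 members and 502 of all genes (3.12%). The spread between liver libraries was wide, with a biological coefficient of variation of 51.2% against 9.06% in MEFs. The adjusted p of each of the 8 genes was 1.00. Without the library labelled RepB-/- replicate 2, which reads as male, 0 members and 0 of all genes were called, and the log2 fold changes were 0.14 for *Cdkn1a*, 0.30 for *Cdkn1b*, 0.60 for *Cdkn2c*, 1.44 for *Cdkn2d*, 0.06 for *Trp53*, 0.02 for *Mdm2*, 0.75 for *Rb1* and 0.12 for *Rbl1*. The signs of *Trp53* and *Rbl1* turned with that step.

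**Figure D5:**
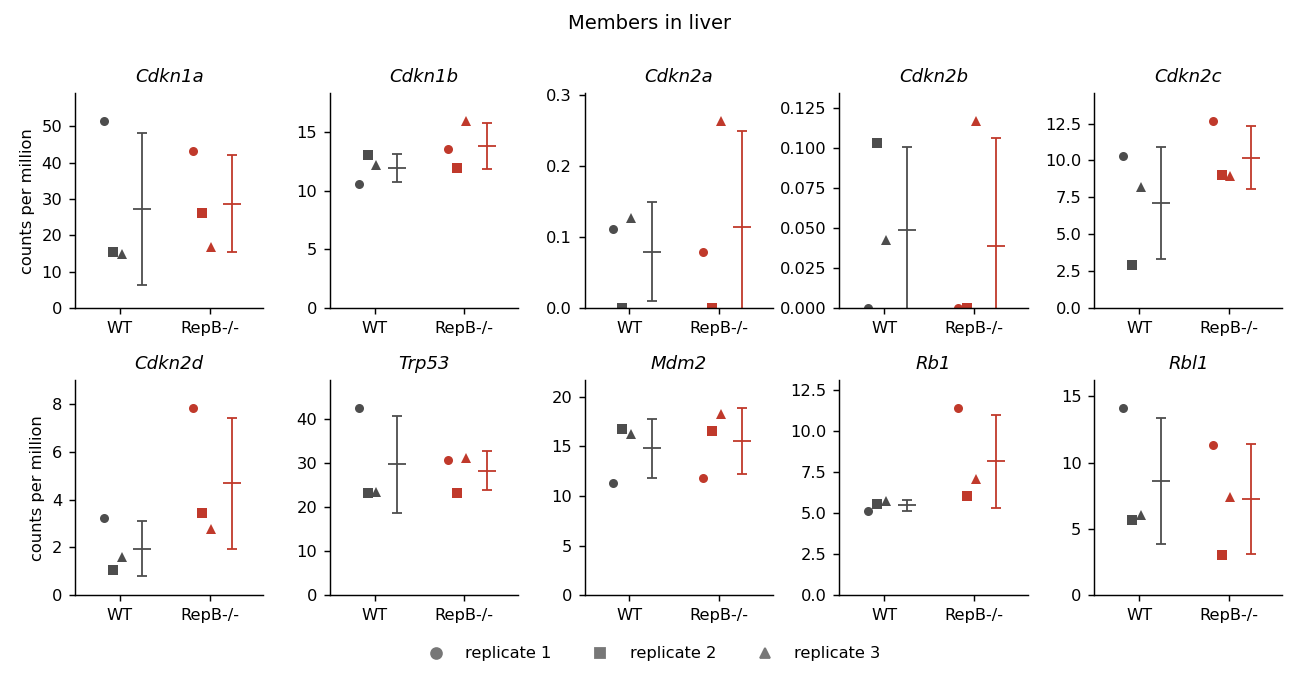
Level of each of the 10 genes in liver in CPM (vertical axes start at 0, bars of SD are cut there) for 3 WT and 3 RepB-/- libraries. The replicate 1 symbols are the highest in both genotypes for *Cdkn1a*, *Cdkn2c*, *Cdkn2d* and *Rbl1*, and *Rb1* is the only gene whose genotypes do not overlap.

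*Cdkn2a* and *Cdkn2b* were at the edge of detection in liver. *Cdkn2a* had 4, 0 and 9 counts in RepB-/- and 5, 0 and 6 counts in WT, and *Cdkn2b* had 0, 0 and 4 counts and 0, 4 and 2 counts. A count of 0 allows a level of up to 0.0592 to 0.0775 CPM in the libraries concerned, taking 3 counts as the limit for counting error only, so a genotype difference was not detectable at this depth. The order of the other genes in WT liver was *Cdkn1a* at 7.67 CPM per kilobase, *Trp53* at 7.33, *Mdm2* at 2.91, *Cdkn2c* at 2.65, *Cdkn1b* at 2.62, *Rbl1* at 1.44, *Cdkn2d* at 1.24 and *Rb1* at 0.912. In that order only *Trp53* and *Mdm2*, and *Rb1* and *Cdkn2a*, did not overlap as neighbours. The tables of liver and MEFs were made separately, so levels are not compared between them.

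*Cdkn1a* was at 43.1, 26.1 and 16.9 CPM in RepB-/- liver and at 51.4, 15.5 and 15.0 CPM in WT, with the replicate 1 liver highest in each genotype and overlapping groups (log2 fold change 0.07, SE 0.58). Its sign turned without RepB-/- replicate 1, WT replicate 2 or WT replicate 3, with the leave-one-out values between -0.34 and 0.92. *Trp53* was at 30.7, 23.1 and 31.0 CPM against 42.4, 23.2 and 23.4 CPM (log2 fold change -0.07, SE 0.29), and *Mdm2* at 11.8, 16.5 and 18.2 CPM against 11.4, 16.8 and 16.2 CPM (0.07, SE 0.26). *Mdm2* was lowest in the replicate 1 livers of both genotypes, where *Cdkn1a* was highest. *Cdkn1b* was at 13.5, 12 and 15.9 CPM against 10.6, 13.0 and 12.1 CPM (0.21, SE 0.20), the smallest SE of the 8 genes.

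*Cdkn2d* had the largest estimate of the 8 genes, at 7.82, 3.44 and 2.77 CPM in RepB-/- liver and 3.23, 1.03 and 1.58 CPM in WT. RepB-/- was higher in 3 of 3 pairs of the same replicate number, with log2 ratios of 1.27, 1.73 and 0.81, while the groups overlapped because WT replicate 1 exceeded RepB-/- replicate 3. The log2 fold change was 1.26 (SE 0.60, adjusted p = 1.00), and with the replicate number as a block it was 1.27 (SE 0.33, adjusted p = 0.541). Without RepB-/- replicate 1, the library with the highest value, it was 0.67. *Cdkn2c* was at 12.7, 9 and 8.92 CPM against 10.3, 2.89 and 8.17 CPM (0.52, SE 0.47), higher in 3 of 3 pairs with log2 ratios of 0.30, 1.64 and 0.13. WT replicate 2 carried most of that estimate, which was 0.15 without it. The second pair of both genes rests on the library that reads as male, and the labels do not state a pairing. Erythroid markers moved alongside, summing to 4451, 2247 and 1389 CPM in RepB-/- and 1624, 311 and 259 CPM in WT, and their part in these values was not tested.

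*Rb1* was the only one of the 10 genes whose liver groups did not overlap, at 11.4, 6.04 and 7.09 CPM in RepB-/- and 5.11, 5.58 and 5.77 CPM in WT, while 8.05% of all genes tested did not overlap in either direction. Its log2 fold change was 0.58 (SE 0.31, adjusted p = 1.00), and 0.26 without RepB-/- replicate 1, the library with the highest value. *Rbl1* was at 11.3, 3 and 7.38 CPM against 14.1, 5.63 and 6.08 CPM (-0.25, SE 0.57), highest in replicate 1 of each genotype. The replicate 1 livers had summed E2F targets of 760 and 879 CPM, against 169 to 268 CPM in the other livers, and the order of *Rbl1* followed that split. The library labelled RepB-/- replicate 2, which held the Y-linked counts, had the lowest *Rbl1* of the 6. In a fit with a term for replicate 1 and without that library, the log2 fold changes were -0.025 for *Cdkn1a*, 0.045 for *Trp53*, 0.054 for *Rbl1*, 0.69 for *Rb1* and 1.16 for *Cdkn2d*, none of them called where 0.0179% of all genes were.

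In liver 0 genes of the p53 target, E2F target, Rb partner, p53 regulator, INK4-ARF regulator and secretory lists were called by edgeR. At an unadjusted p under 0.05 there were 3 of 37 p53 targets, 0 of 31 E2F targets, 0 of 28 Rb partners, 1 of 15 p53 regulators, 1 of 18 INK4-ARF regulators and 1 of 14 secretory genes, where 3.12% of all genes were. The median log2 fold change of the E2F targets was -0.02 in liver and ranged from -0.93 to 1.49 over the alternative fits, so no direction can be read from it. *Mki67* in liver was at 54.2, 9.06 and 28.3 CPM in RepB-/- and 30.4, 4 and 15.1 CPM in WT. The groups overlapped, while RepB-/- was higher in 3 of 3 pairs of the same number (log2 ratios 0.84, 1.18 and 0.90). Of the 7 proliferation markers, 0 were called and 7 had estimates above 0, with a median log2 fold change of 0.65, or 0.79 with the replicate block. Without RepB-/- replicate 1 the median was 0.18, without WT replicate 2 it was 0.30, and in each case 4 of 7 were above 0.

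The difference between the tissues was tested as an interaction of tissue and genotype over all 12 libraries. Of the 10 genes 0 were called, where 0.388% of 15208 genes were, and 1 gene, *Cdkn2d*, had an unadjusted p under 0.05 (interaction of 1.35 on the log2 scale, liver minus MEFs, SE 0.61, adjusted p = 0.35). For *Cdkn1a* the interaction was 0.81 (SE 0.64, adjusted p = 0.622), for *Mdm2* 0.37 (SE 0.29, adjusted p = 0.622) and for *Rbl1* -0.87 (SE 0.62, adjusted p = 0.578). The calls of *Cdkn1a*, *Mdm2* and *Rbl1* in MEFs were therefore not shown to differ from liver. With a term for replicate 1 in liver, *Cdkn2d* was called (1.35, SE 0.27, adjusted p = 0.0201) where 5.92% of all genes were, and *Cdkn1a* was not (0.99, SE 0.28, adjusted p = 0.0606). Both fits share 1 estimate of the spread between tissues whose spreads differed several-fold, so the p-values of both are uncertain.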

How the data were processed

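RNA-seq counts of 12 libraries were used, 3 RepB-/- and 3 WT from MEFs and from liver, grouped by their labels. The authors deposited whole-number counts per gene, not normalized, and gene lengths in bases; the 18 other per-library columns (FPKM and TPM) were not used. The paper names Cutadapt and Hisat2, and the submitters' processing notes name Trim Galore 0.4.1, STAR 2.7.0, HTSeq 0.12.4 and DESeq2; which made each table is not given in the sources used here. The paper describes the MEF libraries as stranded, and the strand setting of the counting is not given. The MEF table carries GRCm39 and the liver table GRCm38 coordinates, and the latter are printed.

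Each table was fitted alone in edgeR 4.0.16 (R 4.3.3) with TMM, filterByExpr, glmQLFit and glmQLFTest, and p-values were adjusted by Benjamini-Hochberg over all genes tested, with a threshold of 0.05. DESeq2 1.42.0 was an alternative, with others given in the closing section. The scripts were tested on simulated data, where false calls in MEFs were a larger share than the threshold allows and only the largest changes were recovered in liver. Lengths in liver came from GENCODE M21 exons. Promoters came from RefSeq (GRCm38.p6), which held 9 of the 10 genes.

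The members and lists were chosen with earlier results of these data known. Named genes were the members, up to 4 genes per list with the largest log2 fold change among called genes without overlap between genotypes, and 8 further genes (*Cdkn1c*, *Rbl2*, *E2f1*, *Mki67*, *Lmnb1*, *Hmgb1*, *Hmgb2* and *Glb1*). Same-numbered livers deviated together, with correlations of 0.71, 0.36 and 0.37, and same-numbered MEFs did not, with -0.011, -0.042 and -0.0035. The replicate 1 livers stood apart in both genotypes, which alone makes the other livers deviate alike. Correlations between libraries of different numbers were not computed, so these values do not show a pairing of the livers. The labels state none, and pairs of the same number are read only as descriptions. Depth was 11540344 to 51542709 counts per library; limits set from counts cover counting error only.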

Additional observations from a re-analysis of the deposited data

How the results depend on the processing

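*Cdkn1a* and *Rbl1* in MEFs kept their direction and call under all 10 alternatives. The number of the 10 genes called in MEFs ranged from 2 to 6 when each library was left out, lowest without RepB-/- replicate 1, and was 7 with no filter on low counts. With the replicate number as a block, 5 genes were called, and 5006 of all genes against 5202. In MEFs the numbers only name the samples, and the labels state no pairing in either tissue. The *Cdkn2a* and *Trp53* signs turned without WT replicate 1, with leave-one-out ranges of -0.098 to 0.092 and -0.020 to 0.044. In liver, 0 members were called under every alternative run, the replicate block included, while the count of all genes was 75 by DESeq2, 0 with no filter, 8 with the replicate block, 3 with a term for replicate 1 and RepB-/- replicate 2 left out, and 0 to 4 when each library was left out. Signs turned in liver for *Cdkn1a* (leave-one-out -0.34 to 0.92), *Trp53* (-0.21 to 0.28), *Rbl1* (-0.73 to 0.30) and *Mdm2* (-0.088 to 0.23), and for *Cdkn1a* (-0.025), *Trp53* (0.045) and *Rbl1* (0.054) with the term for replicate 1 and RepB-/- replicate 2 left out. The interaction called 1 member with a term for replicate 1 in liver, 0 with the replicate block and 0 without RepB-/- replicate 2. The median of all genes in MEFs was -0.16 with DESeq2 and -0.12 with no filter, where more low genes were tested. The cause of these changes was not tested. Depth limits *Cdkn2a* and *Cdkn2b* in liver, and 3 libraries per group limit every p-value.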
